A study of Mus musculus with 12 samples.

Results

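The 71 genes described here encode mitochondrial ribosomal proteins, and they were taken from 22180 mouse genes measured on 12 Affymetrix arrays of CD8 T cells. A gene was a member if a probe set carried its symbol alone and that symbol began with Mrpl or Mrps and a digit. Where a gene had several such probe sets, the one with the highest mean was used. The members comprised 43 Mrpl genes, named for the large ribosomal subunit, and 28 Mrps genes, named for the small one. The rule used symbols and mean intensities and no measured difference, although earlier results of these data were known when it was chosen. A further 7 protein-coding genes with such symbols, Mrpl30, Mrpl33, Mrpl41, Mrpl43, Mrpl44, Mrpl53 and Mrps6, were not analysed here, because they had no probe set of their own.

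The mitochondrial ribosome translates the few proteins that mitochondrial DNA encodes, all of them subunits of the respiratory chain and of ATP synthase. Its proteins are encoded in the nucleus, made in the cytosol and imported, and they are assembled on ribosomal RNA transcribed inside the organelle. Some descend from the ribosome of the bacterial ancestor and others were added in mitochondria. In activated T cells this machinery is built up as the cells grow and enlarge their mitochondria.

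The arrays covered 4 groups of spleen CD8 T cells: Tc17 STAT3-/-, Tc17 WT, Tc1 STAT3-/- and Tc1 WT. The STAT3-/- cells carried STAT3fl/fl, a floxed allele of the signalling factor STAT3, together with Cd4cre, so that the gene is lost in T cells that have passed through Cd4 expression. Sorted naive cells of both genotypes were mixed in equal proportion and stimulated with anti-CD3 at 1 ug/ml and anti-CD28 at 3 ug/ml. All 4 groups were grown for 4 days, of which 3 days were with polarizing cytokines (IL-6 and TGFb for Tc17, IL-12 for Tc1) and 1 day was with IL-2. Allelic surface markers then served to separate STAT3-/- from WT cells. Each group had 2 biological arrays and 1 technical array, which was averaged with biological replicate 2, the number it carries, giving 2 samples per group. In all 4 groups the technical array differed more from biological array 2 (SD over tested genes 0.209 to 0.352) than biological array 1 did (0.144 to 0.192), so that the second sample of a group mixes less similar arrays.

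The targeted gene followed the labels. Stat3 had log2 intensities of 7.59 to 7.93 on Tc17 STAT3-/- arrays and 10.38 to 10.72 on Tc17 WT arrays, and of 6.99 to 7.67 on Tc1 STAT3-/- arrays and 9.77 to 10.13 on Tc1 WT arrays. The mean of 7 CD8 T cell markers lay between 10.11 and 10.30 on every array, although 2 of the 7 were lower in Tc17 STAT3-/- than in Tc17 WT cells. Il17a and Il17f, the cytokines of the Tc17 state, averaged 8.39 to 10.03 on Tc17 WT arrays and at most 4.90 on arrays of the other groups. Of the 5 B cell markers on the array, the 2 bright enough to test, Cd79b and Ighm, were both higher in Tc17 STAT3-/- than in Tc17 WT cells. The mean of the 5 was 5.69 to 5.76 in Tc17 STAT3-/- and 5.22 to 5.31 in Tc17 WT cells, while the B cell genes Cd79a, Ms4a1 and Pax5 stayed between 2.34 and 4.31 on all 12 arrays. Markers of myeloid, erythroid and CD4 T cells each had 1 tested gene lower in Tc17 STAT3-/- cells (Cd68, Epor and Cd4). Tc17 arrays of both genotypes overlapped for Epor and Cd4, but not for Cd68. The means of these marker lists were at most 4.74 on Tc17 STAT3-/- arrays and at most 5.05 on Tc17 WT arrays. The part of such cells in the results below was not tested, and in bulk RNA a change in the number of cells of a type cannot be told apart from a change in RNA per cell. The technical Tc17 WT array stood apart, with a median correlation of 0.9328 with the other arrays over tested genes, against 0.9605 or more for the other 11.

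Values below are the deposited log2 intensities minus the array's median over the 9862 genes that reached a mean of 5 in at least 1 group. They are called relative levels, and they compare arrays for 1 gene, not genes with each other. Of the 71 members, 68 passed this filter, 42 of the large and 26 of the small subunit. Mean log2 intensities over the arrays ran from 5.22 for Mrpl48 to 9.16 for Mrpl52 in the large subunit and from 5.84 for Mrps18c to 9.31 for Mrps15 in the small subunit. The 3 members left out were dim on all arrays: Mrpl27, a large subunit protein with a bacterial counterpart, at 4.42 to 5.001, Mrps14 at 3.15 to 4.19 and Mrps36 at 3.37 to 4.58. Mrps36 is known as a component of the 2-oxoglutarate dehydrogenase complex and not of the ribosome, in spite of its symbol. Calls are those of limma at an adjusted p (Benjamini-Hochberg, over all 9862 genes) under 0.05.

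The start regions of the members were examined because nuclear genes for mitochondrial proteins are known for binding sites of GABPA, an ETS factor, of NRF1 and of YY1. RefSeq promoter windows of assembly GRCm38.p6 each ran from 250 bases before to 50 bases after a start site. They were matched for 62 of the 71 members, which had 68 windows, 3 members having several. Some of these sites, as in Mrpl24 and Mrpl18, were not at the gene's listed start. The letters CCGGAAG, an ETS motif, stood on either strand in 33.8% of the members' windows and in 8.86% of all 32851 windows. The NRF1 letters, GCGC, any 2 bases and GCGC again, stood in 17.6% of the members' windows and in 6.23% of all windows, and the YY1 letters AAGATGGC in 17.6% and 2.75%. At least 1 of these 3 motifs was present in 57.4% of the members' windows and in 16% of all windows. By gene, that was 39 of the 62. The STAT letters TTCNNNGAA were in 7.35% of the members' windows, near the 8.30% of all windows, and the E-box CACGTG, bound by MYC among others, in 10.3% against 7.15%. The windows were not matched for base composition, and a match is a description of letters, not of binding.

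The windows of 4 members that differed between genotypes in Tc17 cells are shown, 2 that were lower in STAT3-/- cells (Mrpl52 and Mrps22) and 2 that were higher (Mrps27 and Mrpl42), with motif letters in capitals. Mrpl52 (chr14:54426659-54426958, plus strand) holds the ETS motif at bases 204 to 210 and at 253 to 259, both times on the reverse strand. Mrps22 (chr9:98601630-98601929, minus strand) holds STAT letters at 209 to 217 and the ETS motif at 240 to 246. Mrps27 (chr13:99344536-99344835, plus strand) holds the ETS motif at 203 to 209, reversed, and the YY1 motif at 265 to 272. Mrpl42 (chr10:95501900-95502199, minus strand) holds STAT letters at 12 to 20 and the YY1 motif at 278 to 285.
Mrpl52: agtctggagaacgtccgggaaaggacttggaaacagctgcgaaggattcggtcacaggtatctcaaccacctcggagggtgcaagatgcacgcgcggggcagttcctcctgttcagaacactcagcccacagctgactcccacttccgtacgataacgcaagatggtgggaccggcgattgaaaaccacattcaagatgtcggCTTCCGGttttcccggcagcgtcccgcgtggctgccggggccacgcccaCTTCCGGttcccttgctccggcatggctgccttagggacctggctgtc
Mrps22: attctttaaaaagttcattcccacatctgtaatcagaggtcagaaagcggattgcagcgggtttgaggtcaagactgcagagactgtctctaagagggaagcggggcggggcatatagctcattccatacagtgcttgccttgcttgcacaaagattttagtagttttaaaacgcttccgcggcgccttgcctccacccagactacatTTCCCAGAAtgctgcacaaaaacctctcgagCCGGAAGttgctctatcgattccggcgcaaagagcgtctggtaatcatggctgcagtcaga
Mrps27: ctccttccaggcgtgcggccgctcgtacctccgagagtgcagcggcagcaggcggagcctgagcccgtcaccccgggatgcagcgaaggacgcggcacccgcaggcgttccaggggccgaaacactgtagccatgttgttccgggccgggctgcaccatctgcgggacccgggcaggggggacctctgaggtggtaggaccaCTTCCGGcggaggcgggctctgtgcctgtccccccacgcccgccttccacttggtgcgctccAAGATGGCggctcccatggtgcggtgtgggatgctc
Mrpl42: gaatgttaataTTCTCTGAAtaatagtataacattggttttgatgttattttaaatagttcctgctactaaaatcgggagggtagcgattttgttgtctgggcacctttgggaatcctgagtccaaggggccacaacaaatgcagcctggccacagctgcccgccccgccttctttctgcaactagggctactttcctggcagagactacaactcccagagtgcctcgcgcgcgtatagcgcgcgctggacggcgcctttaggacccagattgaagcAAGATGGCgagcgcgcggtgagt
None of these motifs overlaps another. The windows of the other 4 members called in that comparison, Mrpl40, Mrps17, Mrpl16 and Mrpl47, hold none of the 5 motifs, so motif content was mixed among members that rose and among members that fell.

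In Tc17 cells, STAT3-/- against WT, most members differed little, and 8 of the 68 tested were called. Mrps17, Mrpl42, Mrpl16, Mrps27 and Mrpl47 were higher in STAT3-/- cells and Mrpl40, Mrpl52 and Mrps22 were lower. The 8 calls are 11.8% of the members, against 22.3% of all tested genes in the same comparison. Higher calls made up 7.35% of the members and 11.0% of all genes, and lower calls 4.41% and 11.3%. All members lay between -0.52 and 0.50 on the log2 scale, and 50 of 68 (73.5%) differed by less than 0.25, against 64.3% of all genes.

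**Figure D1:**
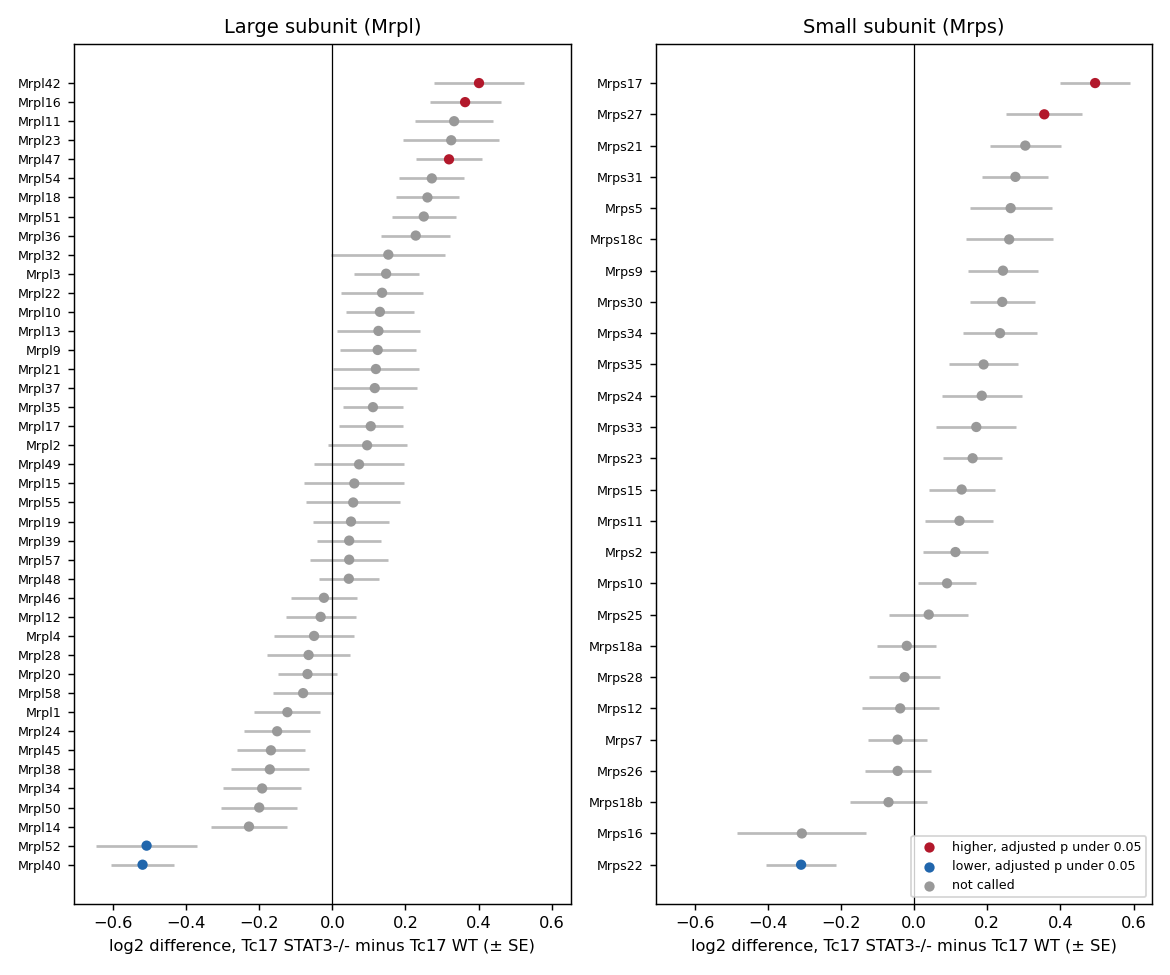
Log2 difference, Tc17 STAT3-/- minus Tc17 WT, for the 68 tested members with large subunit genes on the left and small subunit genes on the right, sorted by size, with bars of 1 SE and coloured points for called members. The 5 members called higher and the 3 called lower lie at the ends of a distribution in which 45 members are above 0.

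The median member difference was 0.11, against -0.006 over all tested genes, and 45 of 68 members were above 0. The spread between samples of 1 group in the member median was 0.044 (pooled SD). Relative levels on the 3 arrays of each group did not overlap for 25 members. Of these, 21 (30.9%) were higher in Tc17 STAT3-/- cells, where 19.9% of all genes were, and 4 (5.88%) were lower, where 20.6% of all genes were. By array, the member median was 0.33, 0.22 and 0.26 in Tc17 STAT3-/- cells (biological arrays 1 and 2, then the technical array), and 0.13, 0.21 and 0.11 in Tc17 WT cells. The lowest STAT3-/- array was thus only just above the highest WT array.

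Mrpl40, a mitochondrion-specific protein of the large subunit, had the largest fall. It stood at 0.36, 0.37 and 0.62 on the Tc17 STAT3-/- arrays, against 0.95, 0.86 and 1.03 on the Tc17 WT arrays. The ranges did not touch. The difference was -0.52 ± 0.086 (SE; n = 2 samples each; limma adjusted p = 0.00355), a level 0.698 times that of WT. It was called in the main setting and under each of 21 alternatives, with adjusted p from 0.000989 to 0.0452. In Tc1 cells Mrpl40 stood at 0.34, 0.35 and 0.32 in STAT3-/- and at 0.48, 0.44 and 0.71 in WT, a difference of -0.19 that was not called (limma adjusted p = 0.998).

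Mrpl52, another mitochondrion-specific large subunit protein, had relative levels of 2.05, 2.09 and 2.40 in Tc17 STAT3-/- cells, against 2.50, 2.55 and 3.08 in Tc17 WT cells. The technical array was the highest of its group in both, and every WT array was above every STAT3-/- array. Its difference was -0.51 ± 0.14 (SE; limma adjusted p = 0.0288). Mrps22, a mitochondrion-specific small subunit protein whose human counterpart is mutated in inherited respiratory chain deficiency, stood at -0.26, -0.32 and -0.17 in Tc17 STAT3-/- cells and at -0.005, -0.001 and 0.24 in Tc17 WT cells. Its difference of -0.31 ± 0.096 (limma adjusted p = 0.0481) lay close to the threshold, and with the values as deposited it was -0.19 (adjusted p = 0.13). Without the technical Tc17 WT array it was -0.25 (adjusted p = 0.0694).

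Mrps17, a small subunit protein with a bacterial counterpart, had the largest rise. Its relative levels were -0.40, -0.61 and -0.42 in Tc17 STAT3-/- cells, against -0.93, -1.01 and -0.94 in Tc17 WT cells. The difference was 0.50 ± 0.095 (SE; limma adjusted p = 0.00684), 1.41 times the WT level. A second, dimmer probe set of Mrps17, with a mean log2 intensity of 4.60, differed by only 0.07, and the mean of both probe sets was not called (0.29, adjusted p = 0.167).

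Mrpl42, specific to the mitochondrial large subunit, stood at -0.17, -0.064 and -0.062 in Tc17 STAT3-/- cells, against -0.62, -0.43 and -0.40 in Tc17 WT cells (difference 0.40 ± 0.12, SE; limma adjusted p = 0.0475). Mrpl16, with a bacterial counterpart near the catalytic centre, stood at 0.003, 0.053 and 0.15 against -0.27, -0.12 and -0.60 (0.36 ± 0.097; limma adjusted p = 0.0284). Mrps27, an RNA-binding protein of the pentatricopeptide repeat type, stood at -0.52, -0.59 and -0.65 against -0.87, -0.74 and -1.22 (0.36 ± 0.10; limma adjusted p = 0.0398). For Mrpl16 and Mrps27 the technical WT array was the lowest of the 12. Without it, Mrpl16 differed by 0.24 (adjusted p = 0.108) and Mrps27 by 0.24 (adjusted p = 0.132), so that both calls were lost.

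Mrpl47, at the exit of the tunnel through which the new protein leaves, stood at -1.35, -1.41 and -1.45 in Tc17 STAT3-/- cells and at -1.77, -1.66 and -1.62 in Tc17 WT cells. It differed by 0.32 ± 0.091 (SE; limma adjusted p = 0.0358), and its second probe set, below the filter at a mean of 3.32, by 0.23. In the plot of single arrays, the technical array lies farthest from the other 2 of its Tc17 group for several genes. These are Mrpl52, Mrps22 and Mrpl16 in both genotypes, Mrps27 in WT cells and Mrpl40 in STAT3-/- cells.

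**Figure D2:**
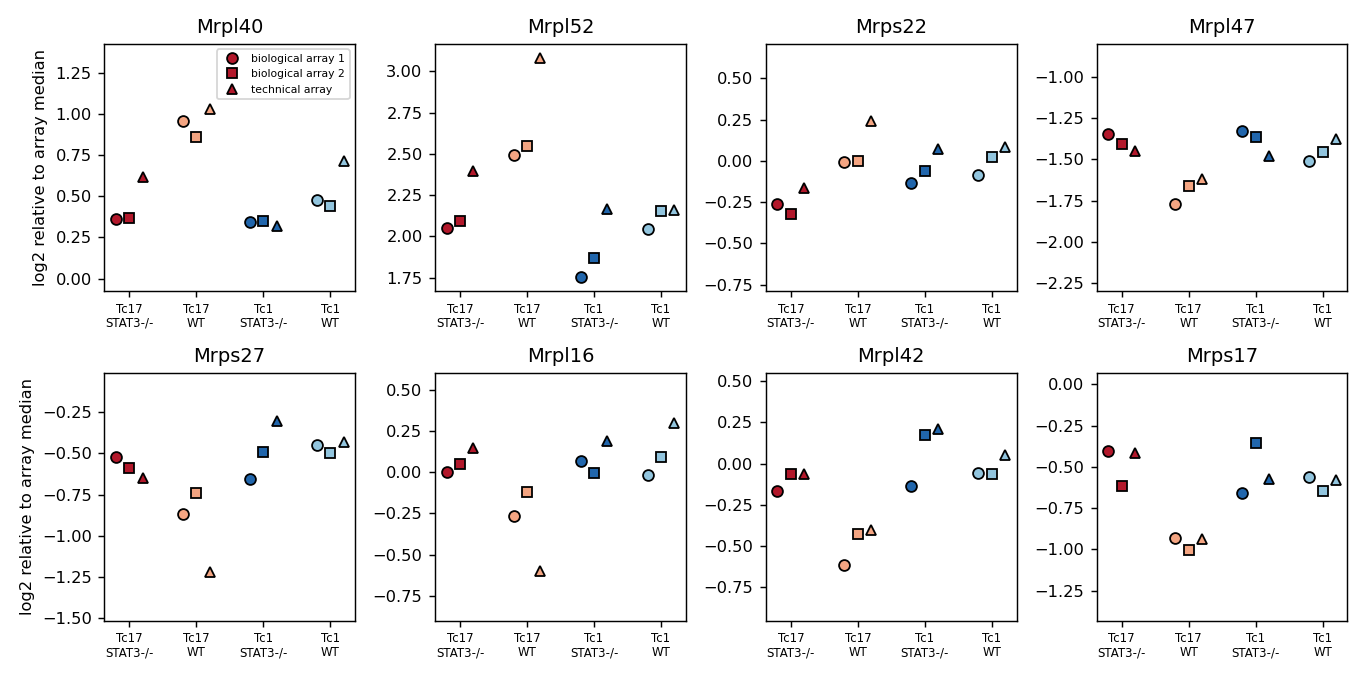
Relative level (log2 intensity minus the array median over tested genes) of the 8 members called between genotypes in Tc17 cells, with 1 point per array; circles and squares are biological arrays 1 and 2, triangles the technical array, and each panel spans the same height of the axis. In all 8 genes the Tc17 STAT3-/- arrays do not overlap the Tc17 WT arrays, for example 0.36 to 0.62 against 0.86 to 1.03 for Mrpl40.

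The count of calls rested on few samples. The calls other than Mrpl40 were lost under 2 (Mrps17) to 11 (Mrps22) alternatives. Leaving out a Tc17 STAT3-/- sample, or a Tc1 WT sample, which enters only the estimate of spread, lowered the share called among members and over all genes. The member median was 0.088 and 0.106 without Tc17 STAT3-/- replicates 1 and 2, against -0.002 and -0.005 over all genes. The scale mattered as well: with the values as deposited, 17 members were higher and 2 lower, beside 18.2% higher and 6.83% lower of all genes. On that scale 27.9% of the members were called, against 25.1% of all genes, and with the median of all genes on the array removed 35.3% were, against 27.5%, so the smaller share of called members does not hold on these scales. As deposited, the median of all genes moved to 0.11 and that of the members to 0.23, so the distance between them remained 0.11. Of all calls over the array, 49.4% were higher calls with the array medians removed, 72.7% as deposited and 81.2% with the median of all genes on the array removed.

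The large and the small subunit differed from each other by about the spread between samples. In Tc17 STAT3-/- against WT cells, 3 of 42 large subunit members were higher and 2 lower, with a median of 0.066. Of 26 small subunit members 2 were higher and 1 lower, with a median of 0.15. Called members made up 11.9% of the large and 11.5% of the small subunit, against 22.3% of all genes. The medians differed by -0.079, large minus small, about the pooled SD of 0.077 between samples. This value was -0.118 and -0.048 without Tc17 STAT3-/- replicates 1 and 2, -0.104 and -0.133 without Tc17 WT replicates 1 and 2, and -0.043 without the technical Tc17 WT array. Non-overlapping arrays put 10 of 42 large (23.8%) and 11 of 26 small subunit members (42.3%) higher in STAT3-/- cells, and 3 large (7.14%) and 1 small (3.85%) lower, beside 19.9% and 20.6% of all genes. The mean of the large minus that of the small subunit was -0.089, -0.097 and -0.109 on Tc17 STAT3-/- arrays, against -0.010, -0.049 and -0.034 on Tc17 WT arrays, which do not overlap. It was -0.090, -0.119 and -0.070 on Tc1 STAT3-/- arrays, against -0.045, -0.079 and -0.104 on Tc1 WT arrays, which do.

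**Figure D3:**
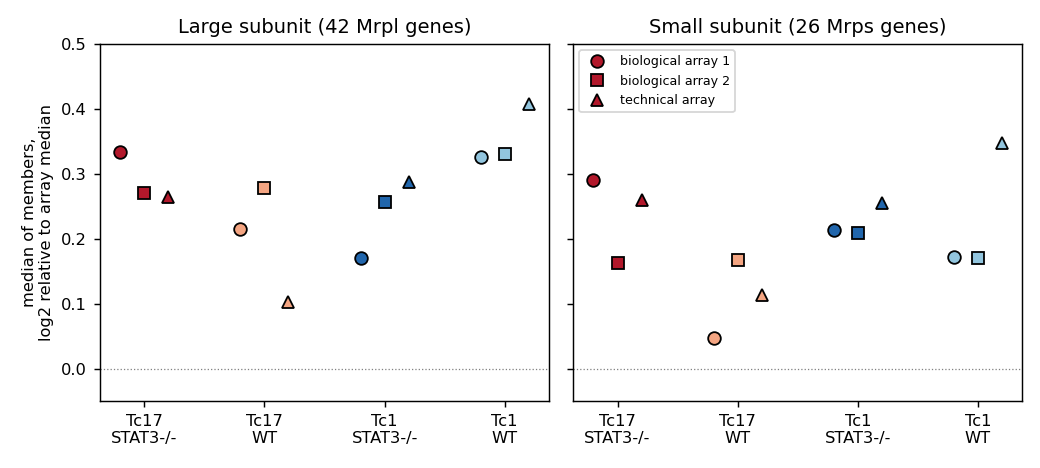
Median relative level of the 42 large subunit members (left) and the 26 small subunit members (right) on each array, in log2 units above the array median, by group. The large subunit median lies between 0.10 and 0.41 and the small subunit median between 0.047 and 0.35, and the STAT3-/- and WT arrays overlap except for the large subunit in Tc1 cells, at 0.17 to 0.29 in STAT3-/- and 0.33 to 0.41 in WT.

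Symbols do not always give the place in the ribosome. Mrps18a and Mrps30 are named for the small subunit but sit in the large one. With these moved, 5 of 44 large and 3 of 24 small subunit proteins were called in Tc17 cells, where 22.3% of all genes were. Their medians were 0.066 and 0.15. Mrps18a differed by -0.020 and Mrps30 by 0.24 (limma adjusted p = 0.0858), and neither was called. The paralogues Mrps18b and Mrps18c, which remain in the small subunit, differed by -0.070 and 0.26 and were not called. The second probe set of Mrps18b, almost as bright at 7.97 as the first at 8.20, differed by -0.34, so the 2 probe sets of this gene disagreed in size.

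By origin, 3 of 39 members with a bacterial counterpart were called in Tc17 STAT3-/- against WT cells, all higher (Mrps17, Mrpl16 and Mrpl47), with a median of 0.12. Of the other 29, most of them added in mitochondria, 2 were higher (Mrpl42 and Mrps27) and 3 lower (Mrpl40, Mrpl52 and Mrps22), with a median of 0.046. These are 7.69% and 17.2% called, against 22.3% of all genes, and the difference between the groups was not tested. In the stalk that recruits translation factors, none of Mrpl10 (0.13), Mrpl11 (0.33, limma adjusted p = 0.0554) and Mrpl12 (-0.032) was called. Mrpl11, the base of the stalk, was the nearest of the 3, and 7 alternatives brought it past the threshold. Of the 6 proteins around the exit tunnel, Mrpl47 alone was called. Mrpl58, a release factor built into the large subunit, differed by -0.080, Mrps24 by 0.19 and Mrps28 by -0.026, all 3 uncalled.

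In Tc1 cells, STAT3-/- against WT, no member was called by limma, where 0.0913% of all genes were called. At an unadjusted p under 0.05 there were 3 of 68 members and 419 of 9862 genes. Member differences ran from -0.23 to 0.11, with a median of -0.053, and 49 of 68 members were below 0. The median was -0.031 and -0.085 without Tc1 STAT3-/- replicates 1 and 2, and -0.092 and -0.028 without Tc1 WT replicates 1 and 2. The lowest adjusted p was 0.998. All 68 members differed by less than 0.25, as did 94.5% of all genes. The member median was 0.19, 0.24 and 0.26 on Tc1 STAT3-/- arrays and 0.25, 0.27 and 0.38 on Tc1 WT arrays, and these ranges overlapped. For the large subunit alone they did not, with medians of 0.17, 0.26 and 0.29 in Tc1 STAT3-/- cells and of 0.33, 0.33 and 0.41 in Tc1 WT cells.

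The difference between the 2 genotype effects was tested as an interaction. No member was called by limma, where 6.51% of all genes were called. At an unadjusted p under 0.05 there were 11 of 68 members and 2176 of 9862 genes. The lowest adjusted p of a member was 0.0775, for Mrps17 (0.47 ± 0.14, SE). The largest difference was 0.52 for Mrpl23, an exit tunnel protein (adjusted p = 0.146). Altogether 54 of 68 members were above 0, with a median of 0.16 against 0.003 over all genes. The genotype differences in Tc17 and Tc1 share no samples, and across the 68 members they had a Pearson r of 0.29, given as a description because members are measured on the same arrays. There were 31 members above 0 in Tc17 and below 0 in Tc1, 14 above 0 in both, 18 below 0 in both and 5 the other way.

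**Figure D4:**
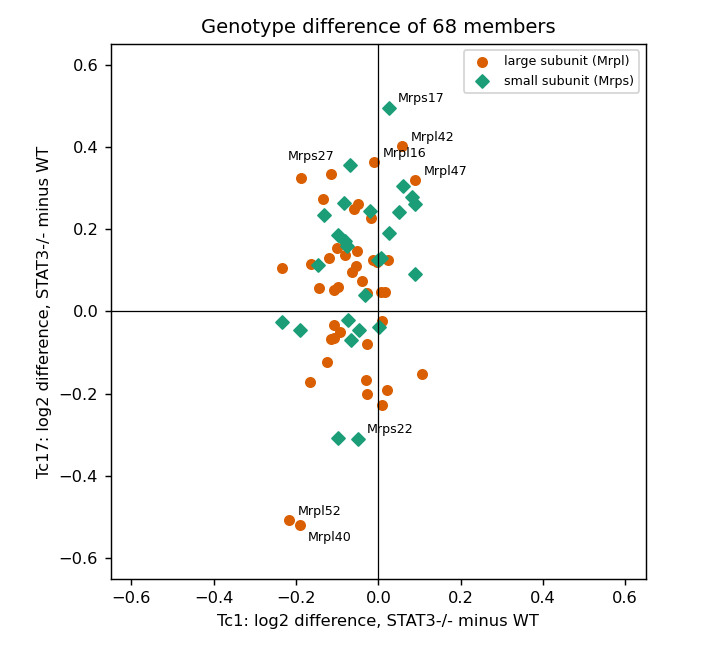
Log2 difference between STAT3-/- and WT cells for the 68 members, Tc17 on the vertical and Tc1 on the horizontal axis with equal scales, circles for the large and diamonds for the small subunit, and names at members called in Tc17. The points spread from -0.52 to 0.50 in Tc17 and from -0.23 to 0.11 in Tc1.

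Between cultures of WT cells, Tc17 against Tc1, 12 of 68 members were called, 2 higher and 10 lower in Tc17. This is 17.6% of the members, against 22.9% of all genes. Higher calls made up 2.94% of the members and 11.5% of all genes, and lower calls 14.7% and 11.3%. The median difference was -0.14, against 0.012 over all genes, and 53 of 68 members were below 0. Arrays did not overlap for 20 members that were lower (29.4%) and 5 that were higher (7.35%), beside 19.0% and 19.0% of all genes in those directions. With the values as deposited, 17 members were lower and 2 higher, beside 18.0% and 7.01% of all genes. The member median was then -0.26, against -0.10 over all genes. In all, 27.9% of the members were then called, against 25.0% of all genes, and 42.6% against 27.8% with the median of all genes on the array removed.

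The 2 higher in Tc17 WT cells were Mrpl52 (0.56 ± 0.14, SE; limma adjusted p = 0.0201) and Mrpl40 (0.42 ± 0.086; limma adjusted p = 0.00912). Mrpl40 stood at 0.95, 0.86 and 1.03 on Tc17 WT arrays and at 0.48, 0.44 and 0.71 on Tc1 WT arrays. The largest falls were those of Mrpl42 (-0.48 ± 0.12; limma adjusted p = 0.023) and Mrps27 (-0.47 ± 0.10; limma adjusted p = 0.013). Mrpl16 (-0.40) and Mrps17 (-0.36) were lower as well. Each of these 6 genes was also called between genotypes in Tc17 cells, but the 2 comparisons share the Tc17 WT samples, so their values are not independent.

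The other 6 were lower in Tc17 WT than in Tc1 WT cells and not called between genotypes. Mrpl11 differed by -0.39 (limma adjusted p = 0.0302), Mrps9, with a bacterial counterpart in the small subunit, by -0.38 (0.0217), and Mrpl18, with one in the large subunit, by -0.38 (0.0146). Mrpl18 stood at 1.00, 1.06 and 1.11 on Tc17 WT arrays, against 1.44, 1.47 and 1.34 on Tc1 WT arrays, and those ranges lie apart. The mitochondrion-specific Mrps35 (-0.30), Mrpl51 (-0.29) and Mrpl54 (-0.29) were called at adjusted p of 0.0476, 0.0399 and 0.0489, and each lost its call under 10 or 11 alternatives. Between genotypes in Tc17 these 6 differed by 0.33, 0.24, 0.26, 0.19, 0.25 and 0.27 in the order named here. Of the 42 large subunit members 2 were higher and 6 lower, and of the 26 small subunit members 4 were lower. These are 19% and 15.4% called, against 22.9% of all genes, and the medians were -0.14 and -0.15.

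Of the 2 tested B cell markers, Ighm was lower in Tc17 WT cells, at 9.03 to 9.12, than in Tc1 WT cells, at 10.44 to 10.45, while Cd79b differed by 0.18 and was not called. Cd4 (0.38), Epor (0.35) and the T cell gene Cd5 (0.46) were higher in Tc17 WT cells, although arrays of both groups overlapped for Cd4 and Epor. The part of these genes' source cells in the members' values was not tested. The count of called members again rested on few samples. Leaving out either Tc1 WT sample, or Tc17 WT replicate 2, lowered the share called among members and over all genes. The member median was -0.155 and -0.106 without Tc1 WT replicates 1 and 2, against -0.005 and 0.02 over all genes. Without Tc17 WT replicate 2 it was -0.135, against -0.007 over all genes. Without the technical arrays the median was -0.087. Between STAT3-/- cells, Tc17 against Tc1, no member was called by limma, where 2.52% of all genes were called. At an unadjusted p under 0.05 there were 1 of 68 members and 1206 of 9862 genes. There the member differences ran from -0.19 to 0.26, with a median of 0.008.

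Related gene sets were read beside the members, by count and median only. In Tc17 STAT3-/- against WT cells, the 60 tested cytosolic ribosomal proteins, which make up the other ribosome of the cell, had 2 higher and 1 lower, with a median of -0.014. The 71 nuclear-encoded subunits of the respiratory chain and ATP synthase had 4 higher and 1 lower, with a median of 0.062. The products of the mitochondrial ribosome are assembled among them. Called genes made up 5% of the first set and 7.04% of the second, against 22.3% of all genes. In Tc17 WT against Tc1 WT cells the medians were 0.071 and -0.060. All of these sets varied less than the whole array, as the plot of percentiles shows.

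**Figure D5:**
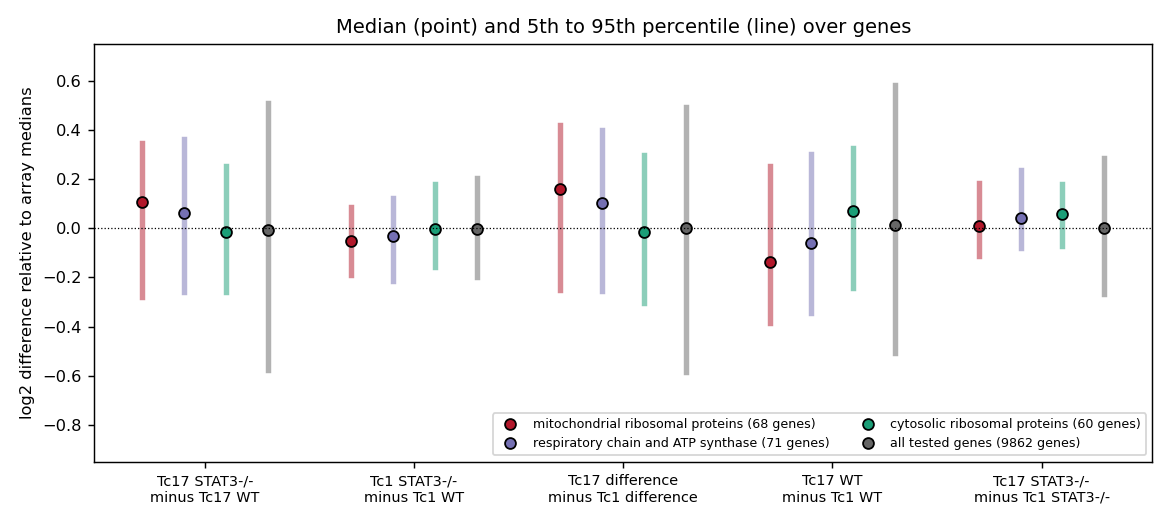
Median (points) and 5th to 95th percentile (lines) of log2 differences over the tested genes of 4 sets, in 5 comparisons. The member median lies at 0.11 in Tc17 STAT3-/- minus Tc17 WT and at -0.14 in Tc17 WT minus Tc1 WT, and the member lines are shorter than those of all tested genes.

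Genes that build and serve the mitochondrial ribosome were counted in Tc17 STAT3-/- against WT cells, where 22.3% of all genes were called, 11.0% higher and 11.3% lower. Of 21 tested assembly factors 3 were higher and none lower: Eral1, which binds the small subunit RNA (0.53 ± 0.16, SE; limma adjusted p = 0.0497), Tfb1m, which methylates it (0.42 ± 0.089; limma adjusted p = 0.0111), and Gtpbp10, a GTPase of large subunit assembly (0.35 ± 0.099; limma adjusted p = 0.0328). Of 13 translation factors 2 were higher, the elongation factor Guf1 (0.41; limma adjusted p = 0.022) and Taco1, an activator of cytochrome oxidase subunit synthesis (0.31; limma adjusted p = 0.0338). Of 14 mitochondrial tRNA synthetases only Fars2, which charges phenylalanine, was called (0.59 ± 0.091; limma adjusted p = 0.00237).

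Among 9 genes of mitochondrial DNA transcription and replication, Tfam, which packages the DNA and starts transcription, was higher (0.40; limma adjusted p = 0.0168) and Polg, the replicative polymerase, was lower (-0.45; limma adjusted p = 0.0417). Tfam and the deacetylase Sirt1 (0.29; limma adjusted p = 0.0499) were the 2 called of 12 regulators of mitochondrial biogenesis. Of 24 protein import genes none was called by limma, and 5 had an unadjusted p under 0.05, as had 3496 of all 9862 tested genes. Of 3 mitochondrial ribosomal proteins with other names, Dap3, Ptcd3 and Gadd45gip1, none was called by limma or had an unadjusted p under 0.05, and they differed by -0.12, -0.086 and -0.22. The medians of the assembly and translation factor lists were 0.047 and 0.089, between those of all genes and of the members.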

How the data were processed

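The authors deposited log2 intensities per probe set. RMA and Partek are named in the submitters' processing notes, with version and order of steps not given in the sources used here. That the scale is log2 follows from the range of the values, up to 13.28. RMA narrows differences near background. Probe sets with exactly 1 symbol in the platform annotation gave 22180 genes, the brightest probe set standing for each. Genes with a group mean of at least 5 were kept, each array's median over them was subtracted, and limma 3.58.1 (R 4.3.3) fitted group means to 8 samples (4 residual and 4.82 prior degrees of freedom), with Benjamini-Hochberg adjustment over 9862 genes and two-sided p-values. Python, pandas and matplotlib served for tables and figures, and the fit was tested on simulated data. Values of the technical and second biological array were averaged. The labels do not say which sample the technical array repeats or that replicates came from separate animals, so the p-values reflect the spread among these samples alone, and that spread may be technical. The number of arrays limits the precision.

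Members, gene lists and named genes were chosen with earlier results of these data known. The genes named are called members (up to 15 per direction and comparison), the brightest and dimmest of each subunit, members of structural interest, up to 4 called genes per other list, Stat3 and markers; Mrpl23 and Mrpl36 were named after their values were seen.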

Additional observations from a re-analysis of the deposited data

How the results depend on the processing

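No called value of the members changed direction under the 21 alternatives. In Tc17 STAT3-/- against WT cells the member median of 0.108 became 0.228 as deposited and 0.281 with the median of all genes removed. Over all genes it moved from -0.006 to 0.114 and 0.167, so the distance of 0.114 stayed. With technical arrays averaged into replicate 1 the member median was 0.06, and with 1 sample left out 0.061 to 0.108. Its count of 8 called members became 19 as deposited, 24 with the median of all genes, 13 with technical arrays left out or kept as samples, 2 without a filter on dim genes, and 1 to 9 with 1 sample left out. As deposited, 27.9% of the members were called, against 25.1% of all genes, and with the median of all genes 35.3% against 27.5%. The 13 were 19.1% of the members, against 25.7% of all genes without technical arrays and 21.3% with them as samples. Without the filter the shares were 2.82% and 7.6%. With 1 sample left out, the share of all genes called moved as well. In Tc17 WT against Tc1 WT cells the median of -0.139 became -0.255 as deposited and -0.313 with the median of all genes. Over all genes it moved from 0.012 to -0.104 and -0.162, so the distance of -0.151 stayed. The member median was -0.087 without technical arrays and -0.155 to -0.086 with 1 sample left out. The count of 12 (17.6%, against 22.9% of all genes) became 19 as deposited (27.9% against 25%). With the median of all genes it was 29 (42.6% against 27.8%), and without the filter 2 (2.82% against 7.4%). For the interaction the median of 0.158 became 0.272 as deposited and 0.334 with the median of all genes. Over all genes it moved from 0.003 to 0.117 and 0.179, so the distance of 0.155 stayed. The member median was 0.09 without technical arrays and 0.092 with them in replicate 1. With 1 sample left out it ran from 0.103 to 0.189. The count was 0, where 6.51% of all genes were called. As deposited it was 2 (2.94% against 6.85%), and with the median of all genes 3 (4.41% against 7.51%). Without technical arrays it was 2 (2.94% against 12.1%). A sample left alone in its group was assumed to vary like the others. With a replicate block, 14 members (20.6%, against 26.1% of all genes) were called between genotypes in Tc17, 10 higher and 4 lower. With that block no member was called between genotypes in Tc1, where 0.122% of all genes were called. Both genotypes grew mixed, but the labels do not say whether samples with the same number shared a culture. Their deviations correlated at 0.455 between Tc1 STAT3-/- and Tc1 WT. The correlation was 0.099 between Tc17 STAT3-/- and Tc17 WT, and 0.098 to 0.16 for the pairs of groups across cultures. The other 286 values of counts and medians changed little. Medians and their differences moved by less than the pooled SD between samples, and counts stayed at 0 or within a fixed ratio of the main count. Among values of single genes under an alternative, 119 lost a call, 33 gained one and 430 kept their side of the threshold. Fewer tested genes or samples change the adjusted p by construction; other causes were not tested.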

Other observations

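In Tc17 WT against Tc1 WT cells, 22.9% of all genes were called, 11.5% higher and 11.3% lower, and the genes around the mitochondrial ribosome had the following counts. Of 21 assembly factors 3 were lower and none higher, with a median of -0.11, and Tfb1m (-0.44) and Gtpbp10 (-0.39) were among them. Of 13 translation factors 3 were lower and none higher, with a median of -0.19, Guf1 (-0.57) and Taco1 (-0.28) among them. Of 14 tRNA synthetases none was called by limma, with a median of -0.11. At an unadjusted p under 0.05 there were 3 of them, and 3547 of all 9862 tested genes. Of 9 genes of mitochondrial DNA transcription and replication 3 were lower, Tfam (-0.46) among them, with a median of 0.001. Of 12 biogenesis regulators 3 were lower and 1 higher (median -0.065), and of 24 import genes 1 was lower (median -0.019). Of the 3 ribosomal proteins with other names none was called by limma or had an unadjusted p under 0.05 (median 0.012). This comparison shares the Tc17 WT samples with the genotype comparison in Tc17 cells.

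Of the 9 members with 2 probe sets, 3 had probe sets that differed in direction between genotypes in Tc17 cells. Mrpl36 differed by 0.23 on the brighter and by -0.38 on the dimmer probe set, which had a mean log2 intensity of 4.33. Mrps18c differed by 0.26 and -0.08, with the dimmer at 3.76. Mrpl12 differed by -0.03 and 0.06, with the dimmer at 4.73.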
